A study of Mus musculus with 4 samples.

Results

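The Krueppel-like factors Klf2, Klf3, Klf4, Klf6, Klf7, Klf10, Klf12 and Klf13 were examined in mouse haematopoietic stem and progenitor cells. They are 8 of the 34782 gene names on the array, were found by name in its annotation, and had 10 of the 55681 non-control probes of the array, 3 for Klf13 and 1 for each of the others. The list was chosen by the processed signals of these same arrays, in the comparisons given below, so the values are a description and carry no test. All 10 probes were well above background on all 4 arrays, so each of the 8 factors was measured in every sample and none was lost to a filter on dim probes.

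Total RNA of 4 samples was hybridised to 1-colour (Cy3) Agilent arrays, with 1 array for each group. Within the LSK gate, long-term stem cells (LT-HSC) were sorted as negative for both CD34 and Flt3, and multipotent progenitors (MPP) as positive for both. They came from marrow of 10-week-old male C57BL/6J mice, either wild type (WT) or with p38 conditionally knocked out (cKO). All 4 groups shared the same procedure: donor cells were dyed with CFSE, transplanted into Ly5.1 congenic recipients after 9.5 Gy of radiation, and sorted again as CFSE-positive cells 16 h later. The Cre line, the exons deleted and the number of mice behind each array are not given in the sources used here. By its title the study asked how p38 alpha acts on purine metabolism as stem and progenitor cells begin to cycle. The 4 groups allow cKO to be set against WT in each population and LT-HSC against MPP in each genotype. With 1 array per group no difference has a replicate check. Each ± below is the error that the scanner software assigns to a difference, which covers neither cells nor sorts nor RNA amplification.

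Krueppel-like factors are transcription factors whose last part holds zinc fingers that bind GC-rich DNA such as CACCC boxes and GC boxes, which they share with the Sp factors. They fall into a group of mostly activators (here Klf2, Klf4, Klf6 and Klf7), a group of repressors that recruit the corepressor CtBP (Klf3 and Klf12), and a group that recruits the corepressor Sin3 (Klf10 and Klf13). Klf2 is known for holding lymphocytes at rest and, with Klf4, for the response of endothelium to flow. Klf4 is also one of the factors used to reprogram cells to pluripotency, Klf6 and Klf10 are early response genes, and Klf10 is induced by TGF-beta.

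The similarity of the zinc fingers can be seen in the array's own probes. A Klf13 probe (mm9 chr7:71082854-71082913) and the probe of the related factor Klf5 (mm9 chr14:99702656-99712388, ends far apart in the genome) come from different genes but overlap when laid side by side without gaps. Over 40 aligned bases 29 were identical (72.5%), shown in capitals. The other probes of the members are not printed.
Klf13: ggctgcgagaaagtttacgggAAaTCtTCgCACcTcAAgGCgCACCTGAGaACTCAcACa
Klf5: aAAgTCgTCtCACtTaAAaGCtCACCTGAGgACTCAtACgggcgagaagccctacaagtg

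Promoters are shown next for Klf2, Klf3, Klf4, Klf6 and Klf7, whose signals were lower together on the array of cKO stem cells, and for Klf12, which differed in opposite directions in the 2 populations. RefSeq promoter sequences (GRCm38.p6) were matched for 7 of the 8 factors, all but Klf10. Each line gives the 250 bases before the start site of the table, on the gene's own strand. Capitals mark CACCC boxes (CACCC or GGGTG), GC boxes (GGGCGG or CCGCCC), the core TGACG (or CGTCA) of the cAMP response element and the MEF2 site. CACCC boxes and GC boxes may overlap. The start that the table gives for Klf12 lies inside the gene. The windows are chr8:72318812-72319061 for Klf2 (plus strand), chr5:64803271-64803520 for Klf3 (plus strand), chr4:55532476-55532725 for Klf4 (minus strand), chr13:5861239-5861488 for Klf6 (plus strand), chr1:64121390-64121639 for Klf7 (minus strand) and chr14:100149797-100150046 for Klf12 (minus strand).
Klf2: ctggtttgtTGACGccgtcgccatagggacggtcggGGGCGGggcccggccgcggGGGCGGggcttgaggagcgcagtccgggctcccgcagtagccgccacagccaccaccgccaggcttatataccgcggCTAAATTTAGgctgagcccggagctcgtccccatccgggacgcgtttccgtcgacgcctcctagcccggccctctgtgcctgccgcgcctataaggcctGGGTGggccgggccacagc
Klf3: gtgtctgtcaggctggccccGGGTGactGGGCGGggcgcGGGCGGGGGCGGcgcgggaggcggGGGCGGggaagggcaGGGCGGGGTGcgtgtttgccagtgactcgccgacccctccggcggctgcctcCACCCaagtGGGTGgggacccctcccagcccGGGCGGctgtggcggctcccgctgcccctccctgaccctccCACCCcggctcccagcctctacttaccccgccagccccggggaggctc
Klf4: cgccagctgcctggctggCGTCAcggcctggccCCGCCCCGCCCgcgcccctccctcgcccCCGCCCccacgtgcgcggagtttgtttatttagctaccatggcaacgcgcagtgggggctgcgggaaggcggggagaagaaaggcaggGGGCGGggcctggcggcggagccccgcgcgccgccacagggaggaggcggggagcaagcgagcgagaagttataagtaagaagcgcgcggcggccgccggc
Klf6: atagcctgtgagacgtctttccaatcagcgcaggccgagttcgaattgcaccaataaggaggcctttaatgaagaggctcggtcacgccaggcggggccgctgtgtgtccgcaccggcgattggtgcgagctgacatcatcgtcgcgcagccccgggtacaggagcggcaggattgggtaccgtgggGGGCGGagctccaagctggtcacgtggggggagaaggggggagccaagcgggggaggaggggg
Klf7: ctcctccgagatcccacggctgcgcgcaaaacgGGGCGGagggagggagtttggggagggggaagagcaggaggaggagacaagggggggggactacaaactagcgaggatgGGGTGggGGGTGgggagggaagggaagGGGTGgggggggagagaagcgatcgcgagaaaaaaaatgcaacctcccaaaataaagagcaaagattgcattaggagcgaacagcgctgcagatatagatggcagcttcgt
Klf12: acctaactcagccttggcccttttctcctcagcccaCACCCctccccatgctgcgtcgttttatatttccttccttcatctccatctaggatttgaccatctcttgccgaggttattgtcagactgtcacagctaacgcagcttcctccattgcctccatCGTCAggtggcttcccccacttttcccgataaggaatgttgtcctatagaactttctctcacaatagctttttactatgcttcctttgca

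Among the 7 promoters matched, 6 held a GC box, against 32.7% of all 32851 promoter windows, and 5 held a CACCC box, against 52.0%. The GC content was 71.2% for Klf2, 78.4% for Klf3, 74.0% for Klf4, 64.8% for Klf6, 59.2% for Klf7 and 71.6% for Klf13. The Klf12 window had 48.0% and no GC box. The median over all windows was 52.4%. Klf3 held the most GC boxes of these windows (6) and 5 CACCC boxes. The MEF2 site, bound by factors downstream of the kinase ERK5, was found in the Klf2 window only, with its first base at -118 from the start, against 2.92% of all windows. The core TGACG was present in 4 windows (Klf2, Klf4, Klf12 and Klf13), against 17.8%. It is also part of the full element TGACGTCA, which was in 0 of the 7 and in 1.55% of all windows. The AP-1 letters TGANTCA (6.75%), the CArG box (1.47%) and the SMAD letters GTCTAGAC (0.167%) were in 0 of the 7 as well, and TATAAA (12.4%) was in the Klf12 window alone. Both strands were searched for each motif. A match describes the letters and no more.

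Before the values, 2 facts on the arrays bear on them. Between 62.5% and 70.5% of an array's spots were well above background and 0 were saturated, and all 4 arrays lay on 1 slide. The stem cell arrays also carried marker genes of other cells: the summed level of 7 B cell markers, relative to the 75th percentile of the array, was 58.2 in WT LT-HSC, 23.7 in cKO LT-HSC, 2.22 in WT MPP and 1.78 in cKO MPP. All 7 were well above background on the stem cell arrays, and Ebf1 and Ms4a1 were not on either MPP array. A list of 4 stromal markers, led by the chemokine Cxcl12, summed to 27.3 in WT LT-HSC and to between 0.889 and 1.55 on the other 3. Cxcl12, Col1a1 and Lepr were highest on the WT LT-HSC array. Kitl, also on the stromal list, was not, with signals of 30.41 in WT LT-HSC and 76.27 in cKO LT-HSC. Both stem cell arrays thus stood apart from the MPP arrays for B cell markers, and the WT LT-HSC array from the other 3 for the stromal sum. Of the defining markers, Slamf1 was well above background on the stem cell arrays only, whereas Procr, at -1.18 (log2) for LT-HSC minus MPP in WT, ran against the label. Cd34, whose protein parted the sorts, had a signal of 1169 in WT LT-HSC, 3601 in cKO LT-HSC, 7733 in WT MPP and 6331 in cKO MPP. In RNA from sorted bulk cells, fewer cells of a type and less RNA per cell cannot be told apart. Mapk14, the gene of p38 alpha, had a cKO minus WT difference of -0.58 in LT-HSC and 0.13 in MPP at its brighter probe (mm9 chr17:28873965-28874024), and by 0.13 and -0.03 at the other (mm9 chr17:28885290-28885349). Since the deleted exons are not given, these probes check no genotype label.

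**Figure D1:**
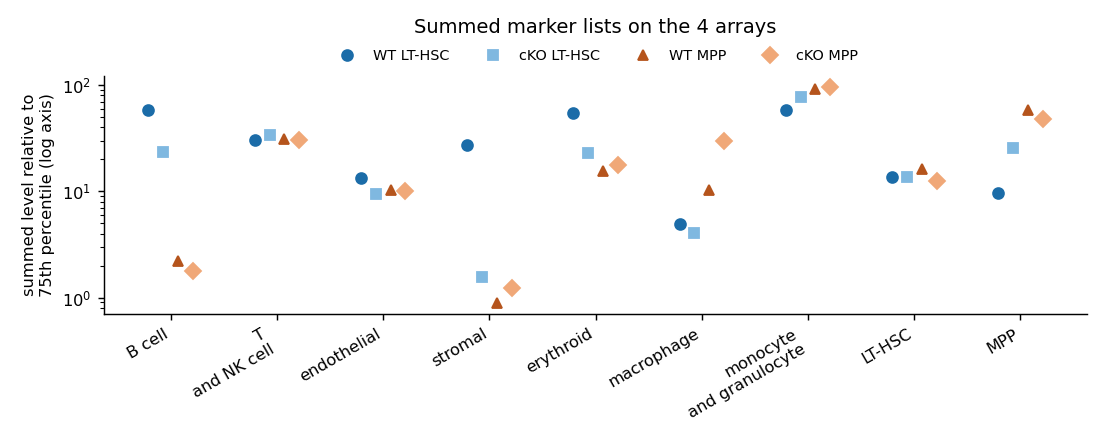
Summed level of each marker list on the 4 arrays, as the sum over its genes of the signal relative to the array's 75th percentile, on a log axis. One point per array. B cell, stromal and erythroid markers stood highest on the WT LT-HSC array (58.2, 27.3 and 54.7) and macrophage markers on the cKO MPP array (30.1).

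Among the activators, Klf2 was brightest in stem cells and lower on the cKO array of each population. Its probe (mm9 chr8:74845137-74845196) gave a processed signal of 7937 in WT LT-HSC, 4702 in cKO LT-HSC, 2791 in WT MPP and 1547 in cKO MPP. After scaling to each array's 75th percentile, the 4 levels were separated from their neighbours by more than 2 scanner errors. Klf2 was lower on the cKO array by -0.67 ± 0.20 (log2) in LT-HSC, or 1.59-fold, and by -0.82 ± 0.20 in MPP, or 1.77-fold. It was 2.37-fold higher on the LT-HSC array than on the MPP array in WT and 2.63-fold higher in cKO. B cell markers had the same order over the 4 arrays, and their part in the stem cell values was not tested. The summed B cell markers were 58.2 and 23.7 on the LT-HSC arrays and 2.22 and 1.78 on the MPP arrays, WT first.

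Klf4 showed the widest gap between stem cells and progenitors among the activators. Its signals (mm9 chr4:55540167-55540226) were 1491 in WT LT-HSC, 814.2 in cKO LT-HSC, 309.4 in WT MPP and 248.0 in cKO MPP. The LT-HSC minus MPP difference was 2.01 ± 0.20 in WT, a 4.02-fold higher signal, and 1.51 ± 0.20 in cKO. The WT and cKO arrays were apart in LT-HSC (-0.79 ± 0.20) and within 2 scanner errors of each other in MPP (-0.29 ± 0.21). Endothelial markers, 5 genes that include Cdh5 and Kdr, summed to 13.5 in WT LT-HSC and to between 9.44 and 10.4 on the others. Kdr was the brightest of them. Cdh5 was well above background on the LT-HSC arrays alone (149.6 in WT and 158.8 in cKO). For LT-HSC minus MPP in WT, Tie1 stood at 1.67, Kdr at 0.34, Emcn at 0.26 and Pecam1 at -1.77. In cKO the same genes stood at -0.81, -0.51, -1.14 and 0.78. Klf4 also had the order of the summed B cell markers over the arrays. The part of endothelial and B cell markers in the Klf4 and Klf2 values was not tested.

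Klf6 set the genotypes apart and not the populations. It had a signal of 5454 in WT LT-HSC and 4539 in WT MPP, against 3221 and 2425 on the cKO arrays of LT-HSC and MPP (mm9 chr13:5869371-5869430). Both WT arrays lay above both cKO arrays by more than 2 scanner errors, whereas the 2 arrays of each genotype were within that distance of each other. The cKO minus WT difference was -0.68 ± 0.20 in LT-HSC and -0.88 ± 0.20 in MPP, the latter 1.84-fold lower. The LT-HSC minus MPP difference was 0.00 ± 0.20 in WT and 0.20 ± 0.20 in cKO, but the WT value was 0.49 with quantile normalization.

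Klf7, a factor best known from neurons, followed the order of Klf4 at lower signals. Its values (mm9 chr1:64082265-64082324) were 264.3 in WT LT-HSC, 151.9 in cKO LT-HSC, 88.34 in WT MPP and 81.28 in cKO MPP. It differed between genotypes by -0.72 ± 0.21 in LT-HSC and by -0.09 ± 0.22 in MPP, where the 2 arrays were within 2 scanner errors. It was 2.50-fold higher on the LT-HSC array than on the MPP array in WT and 1.62-fold higher in cKO. The summed B cell markers had the same order over the arrays, and their part in the Klf7 values was not tested.

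**Figure D2:**
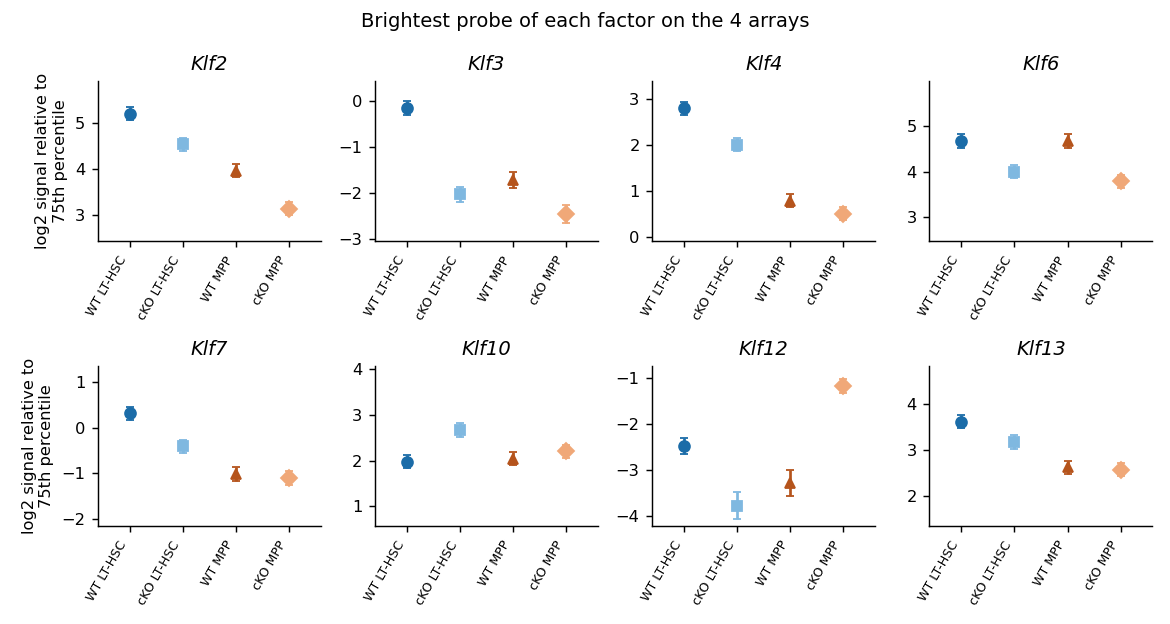
Level of the brightest probe of each factor on the 4 arrays (log2 signal relative to the array's 75th percentile), with the scanner software's error as bars and the same span on each vertical axis. Klf2, Klf4, Klf7 and Klf13 stepped down from WT LT-HSC to cKO MPP in the same order, Klf6 was lower on both cKO arrays, and Klf12 was highest on the cKO MPP array.

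Klf3, a repressor that works through CtBP, was bright on 1 array. Its signal (mm9 chr5:65221309-65221368) was 193.3 in WT LT-HSC, 49.43 in cKO LT-HSC, 54.30 in WT MPP and 31.61 in cKO MPP. The cKO minus WT difference in LT-HSC was -1.89 ± 0.22, or 3.69-fold lower, the widest of the 8 factors in that comparison. In MPP it was -0.75 ± 0.26. As with Klf6 both WT arrays lay above both cKO arrays, but WT MPP and cKO LT-HSC were within 2 scanner errors. The LT-HSC minus MPP difference was 1.57 ± 0.22 in WT and 0.44 ± 0.26 in cKO. With normexp and quantile normalization the genotype differences were -1.16 in LT-HSC and -0.35 in MPP. The WT LT-HSC array, on which Klf3 stood out, also had the highest sums of B cell, stromal and erythroid markers. The erythroid sum was 54.7 there, against 22.8 in cKO LT-HSC, 15.5 in WT MPP and 17.9 in cKO MPP. The part of these markers in the Klf3 value was not tested.

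Klf12, the other CtBP-binding repressor, went in opposite directions with the knockout in the 2 populations. Its signals (mm9 chr14:100270699-100270758) were low throughout: 38.54 in WT LT-HSC, 14.67 in cKO LT-HSC, 18.28 in WT MPP and 77.71 in cKO MPP. The lowest signal called well above background was 12.6 in cKO LT-HSC and 15.4 in WT MPP, so both low values lay near the limit. The cKO minus WT difference was -1.31 ± 0.34 in LT-HSC and 2.12 ± 0.32 in MPP, so LT-HSC lay -3.43 ± 0.47 from MPP in this respect. With normexp and quantile normalization these were -0.44 in LT-HSC and 0.97 in MPP, with the same signs but no longer at 2-fold. Macrophage markers, 6 genes such as C1qc and Cd163, also had their highest sum on the cKO MPP array, 30.1 against 10.3 in WT MPP, 4.07 in cKO LT-HSC and 4.90 in WT LT-HSC. Their part in the Klf12 value was not tested.

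Of the factors that recruit Sin3, Klf10 was the only one of the 8 with a higher level on the cKO array in LT-HSC. It had signals of 843.6 in WT LT-HSC, 1285 in cKO LT-HSC, 736.0 in WT MPP and 807.9 in cKO MPP (mm9 chr15:38224255-38224314). The cKO LT-HSC array lay above the other 3, which were within 2 scanner errors of their neighbours. The cKO minus WT difference was 0.69 ± 0.20 in LT-HSC, or 1.61-fold higher, and 0.16 ± 0.20 in MPP. The LT-HSC minus MPP difference in WT was -0.06 ± 0.20, and its sign turned with other scalings (0.20 without scaling).

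Klf13, which is known as a regulator of the chemokine Ccl5 in T cells, was measured by 3 probes that did not all give the same picture. The brightest (mm9 chr7:71032482-71032541) had signals of 2632 in WT LT-HSC, 1834 in cKO LT-HSC, 1104 in WT MPP and 1036 in cKO MPP. The next probe, whose ends lie 32932 bases apart in the genome (mm9 chr7:71036675-71069606) and which therefore crosses at least 1 intron, had 766.3, 638.4, 164.8 and 345.0 on the same arrays. The dimmest, the zinc finger probe printed above, had 116.9, 64.76, 76.16 and 54.17. All 3 were highest on the WT LT-HSC array. In LT-HSC the cKO minus WT differences were -0.44 ± 0.20, -0.18 ± 0.20 and -0.77 ± 0.21, all below 0. In MPP they were -0.06 ± 0.20, 1.09 ± 0.21 and -0.46 ± 0.23, so the probe across the intron was 2.14-fold higher on the cKO array while the others were not. The LT-HSC minus MPP difference in WT was 0.99, 1.96 and 0.36 at the 3 probes. Whether these probes read different transcripts of Klf13 was not tested. The brightest probe had the order of the summed B cell markers over the arrays, and the part of those markers in its values was not tested.

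**Figure D3:**
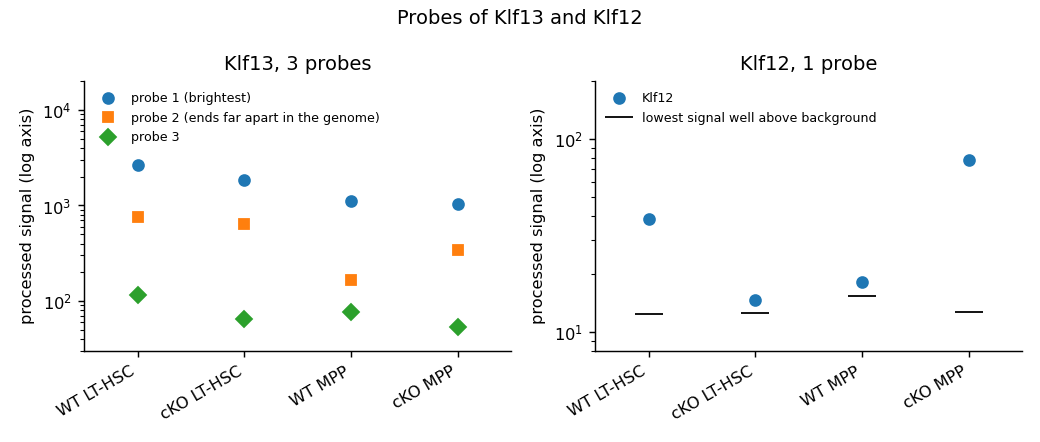
Processed signal on a log axis for the 3 probes of Klf13 (left) and the probe of Klf12 (right) on each array, with the lowest signal called well above background as a black dash in the right panel. The middle Klf13 probe stands at 164.8 on the WT MPP array and at 345.0 on the cKO MPP array while the others are not higher there, and Klf12 lies close to the dash on the cKO LT-HSC and WT MPP arrays.

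Counted together at the brightest probe, the factors were mostly lower on the cKO array in LT-HSC. By 1.5-fold or more, 6 of 8 were lower (Klf2, Klf3, Klf4, Klf6, Klf7 and Klf12), where 14.8% of the 24111 genes measured on both arrays were, and 1 was higher (Klf10), where 18.7% were. By 2-fold, Klf3 and Klf12 were lower (7.9% of all genes) and 0 were higher (8.98%). The median of the 8 was -0.70, and that of all genes 0.10. In MPP, 3 of 8 were lower by 1.5-fold (Klf2, Klf3 and Klf6; 7.53% of 22381 genes), and 1, Klf12, was higher (6.64%). By 2-fold 0 were lower (1.89%) and Klf12 was higher (1.76%), and the median was -0.19 against -0.06 for all genes. The members were chosen with these comparisons known, so the shares give the background and nothing is read from them. Taking the genotype difference in LT-HSC minus that in MPP, Klf3 stood at -1.13 ± 0.34, Klf7 at -0.62 ± 0.30 and Klf4 at -0.50 ± 0.29. Klf10 lay the other way at 0.53 ± 0.29 and Klf13 stood at -0.38 ± 0.29, while Klf2 (0.15 ± 0.29) and Klf6 (0.20 ± 0.29) lay within 1 scanner error of 0. None of these differences between populations was tested.

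LT-HSC were set against MPP in the same way. In WT, 4 of 8 were higher by 2-fold on the LT-HSC array (Klf2, Klf3, Klf4 and Klf7; 9.13% of 22382 genes), and 0 were lower (18.1%). The number higher was between 3 and 6 under other processing (6 without scaling between arrays, 3 with normexp and quantile normalization). At 1.5-fold Klf12 and Klf13 joined them, making 6 (16.3%), with 0 lower (32.6%). The median was 1.12, and that of all genes -0.20. In cKO, Klf2 and Klf4 were higher by 2-fold (6.68% of 23361 genes) and Klf12 was lower, at -2.61 ± 0.33 (6.43%). By 1.5-fold 4 were higher (13.5%) and 1 lower (19.6%), and the median was 0.54 against -0.09. The WT comparison uses the same WT LT-HSC array as the genotype comparison in LT-HSC, with the opposite sign, whereas the cKO comparison and the genotype comparison in MPP do not use it. In the cKO comparison Klf2 and Klf4 were 2.63-fold and 2.84-fold higher on the LT-HSC array, while Klf3 stood at 0.44 and Klf7 at 0.70. In MPP Klf2, Klf3 and Klf6 were lower on the cKO array by 1.5-fold or more. Klf4 stood at -0.29 and Klf7 at -0.09 there, and Klf12 at 2.12. Those comparisons both use the cKO MPP array, with opposite sign, so they are not independent of each other.

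**Figure D4:**
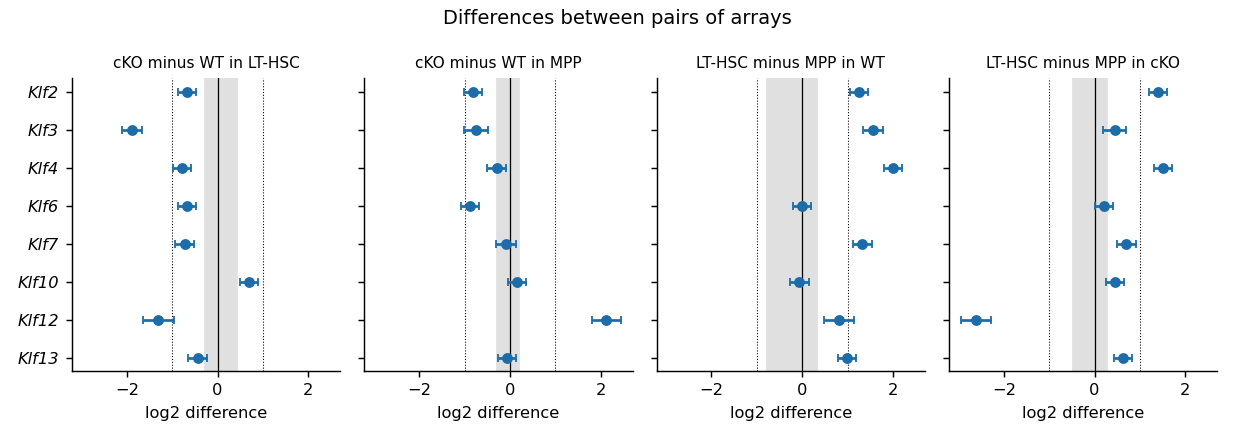
Log2 difference at the brightest probe of each factor in the 4 comparisons (first named minus second), with the scanner software's error as bars, the middle 50% of all measured genes as a grey band and 2-fold as dotted lines. In LT-HSC all but Klf10 lie left of 0 for cKO minus WT, and Klf12 changes side between LT-HSC and MPP.

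Of the 9 other Krueppel-like factors on the list, Klf14, Klf15 and Klf17 were not well above background on any array. The erythroid factor Klf1, Klf5, Klf8, Klf11 and Klf16 were measured on all 4 arrays, and 0 of them differed by 1.5-fold between genotypes in either population. Of all genes, 14.8% were lower and 18.7% higher in LT-HSC, and 7.53% and 6.64% in MPP. Klf9, which recruits Sin3 like Klf10 and Klf13, was not well above background on the WT LT-HSC array (signal 8.475) and had 146.5 in cKO LT-HSC, 84.92 in WT MPP and 71.95 in cKO MPP. That made it at least 12.4-fold higher on the cKO than on the WT LT-HSC array, the bound being set by the lowest signal well above background there, and at least 8.14-fold higher on the WT MPP than on the WT LT-HSC array. Both bounds exceed the fold of any of the 8 factors in the 4 comparisons. In cKO, 3 of the 6 measured (Klf5, Klf8 and Klf9) were higher by 1.5-fold on the LT-HSC than on the MPP array (13.5% of all genes). Klf16 was lower (19.6%). The median of the 6 was 0.59, against 0.54 for the 8 factors. In WT, Klf5 was higher (16.3%) and Klf16 lower (32.6%) among 5 measured, with a median of 0.26 against 1.12. Of the Sp factors, 8 were measured in LT-HSC. Sp1, which binds the same GC boxes, had 2596 in WT LT-HSC and 952.3 on the cKO LT-HSC array (-1.36), against 1527 and 1441 in MPP (-0.05). Sp2 stood at 1.14 in LT-HSC at its brightest probe and at -0.50 at the other, and at -1.36 for LT-HSC minus MPP in WT, with -0.20 at the other. No other Sp factor reached 2-fold in any of the 4 comparisons.

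**Figure D5:**
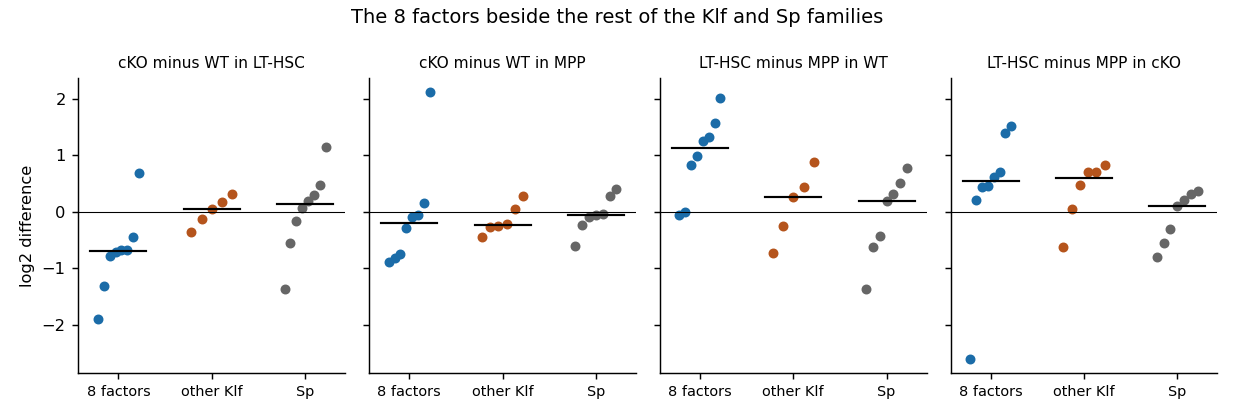
Log2 differences of the 8 factors, the other measured Krueppel-like factors and the Sp factors in the 4 comparisons, 1 point per gene at its brightest probe and a bar at each median. In LT-HSC the cKO minus WT medians were -0.70, 0.04 and 0.13, and a gene is left out of a comparison unless it was well above background on both arrays.

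Genes of pathways upstream of these factors, and genes that act with them, were read from lists. Of the 7 genes from the MAP kinase kinase kinases to MEF2, which drive Klf2 and Klf4 in endothelium through ERK5, 4 were lower by 1.5-fold on the cKO LT-HSC array, against 14.8% of all genes, and 0 higher, against 18.7%. They were Map3k3 (-1.30), Map3k2 (-1.02, with -0.29 at the other probe), Mef2d (-1.01, with 0.06 and -0.60 at the others) and Mef2c (-0.71), while Mapk7, the gene of ERK5, stood at 0.02. Mef2a stood at 0.16 at its brightest probe and at -0.52 and -0.98 at the others. Between the same arrays, WT first, the summed markers were 58.2 and 23.7 for B cells, 27.3 and 1.55 for stroma, and 13.5 and 9.44 for endothelium, and their part in these values was not tested. In MPP 0 of the 6 measured differed by 1.5-fold (7.53% of all genes were lower and 6.64% higher). Of 8 genes of the TGF-beta pathway, which induces Klf10, 3 were lower by 1.5-fold on the cKO LT-HSC array, against 14.8% of all genes. These were Smad4 (-1.09), Tgfb1 (-0.95) and Skil (-0.65), and they need not act on Klf10 in the same direction. In MPP 0 of the 8 were lower, against 7.53%. At their brightest probes 0 were higher by 1.5-fold in LT-HSC (18.7% of all genes) or in MPP (6.64%). Smad4 stood at -0.27 and Skil at -0.51 at their other probes. The receptor Tgfbr1 stood at 0.10 at its brightest probe but at 2.43 and 0.80 at others measured on all 4 arrays. The receptor Tgfbr2 stood at 0.02, with 0.98 at its other probe. Among 9 corepressors and coactivators, the acetyltransferase Kat2b was lower on the cKO LT-HSC array (-3.08) and so was the deacetylase Hdac1 (-0.94, with -0.46 and 0.02 at its other probes), while Ctbp1, Ctbp2, Sin3a and Sin3b lay between -0.11 and 0.43 at their brightest probes, with -0.44 at the other probe of Sin3b. Of the 4 ubiquitin ligases, Wwp1, which targets Klf2, was higher on that array (1.28), and so was Smurf1 (1.26), against 18.7% of all genes. Wwp1 had low signals (23.97 in WT and 55.11 in cKO LT-HSC), and its other probe was not well above background on either array. Smurf2 stood at -1.36 (14.8% of all genes were lower), with -0.84 and 0.40 at its other probes. Fbxw7 stood at 0.19, with -0.70 at its other probe. Trafficking receptors that Klf2 controls in lymphocytes were read too. S1pr1, the receptor for leaving tissue, stood at -0.03 for cKO minus WT in LT-HSC and at 1.40 in MPP, and Itgb7 at 0.21 and -0.07, while Ccr7 stood at -1.49 in LT-HSC and was not well above background in MPP. Between populations, S1pr1 (3.82 in WT and 2.40 in cKO) and Itgb7 (1.82 and 2.10) were higher on the LT-HSC array, as was Klf2. Lymphocyte markers lay the same way. All 6 T and NK cell markers were well above background on both LT-HSC arrays, against 2 on the WT MPP and 3 on the cKO MPP array, and Cd3g, Cd8a and Klrd1 on the LT-HSC arrays alone. The summed level of that list, in which Nkg7 is bright on every array, was between 30.3 and 33.9. The B cell marker Cd79a stood at 5.43 in WT and 4.44 in cKO for LT-HSC minus MPP. Their part in the receptor values was not tested.

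For each factor that spanned 2-fold over the 4 arrays, the genes nearest in profile were found among 21520 genes measured on all of them, by the root mean square distance of log2 values centred on the gene's own mean. With 4 points many genes lie close, from 24 genes within 0.2 for Klf3 to 605 for Klf13, so nearness is a description only. Klf2 lay nearest to Prdm16, a transcription factor of stem cells (distance 0.058), with signals of 248.6, 149.8, 80.43 and 45.87 on the WT LT-HSC, cKO LT-HSC, WT MPP and cKO MPP arrays, followed by Sema4b (0.078). Klf4 lay nearest to the haem synthesis enzyme Uros (0.034) and to Txndc16 (0.036). Klf3 lay nearest to the non-coding RNA Meg3 (0.050) and a transcript without a symbol (0.071). Klf7 lay nearest to Zfpm1, the GATA cofactor also called FOG (0.023), and to a locus without a gene name (0.035), and Klf13 to Zc3h7a (0.017) and Arhgef18 (0.021). Klf12 had no gene within 0.2, and its nearest were an unnamed transcript (0.218) and Hpgd (0.299). Among the members themselves, Klf7 and Klf13 were the closest pair (0.14), then Klf2 and Klf4 (0.29).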

How the data were processed

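Per the file headers, the deposited tables hold linear spot intensities for array design 028005, with probe positions on mouse build mm9. The software was Agilent Feature Extraction, version 10.7.3.1 per the file headers and 9.5.3 per the submitters' processing notes. The processed signal was background-subtracted and detrended within each array by that software, per the file headers. Per the file headers, a score of 0 or 1 flags each spot that is well above background, saturated or outlying. The authors' deposited series table holds ratios, each probe relative to its own level over the 4 arrays. Over 55669 probes, array-to-array differences in it followed the scanner files with r = 1 and the same direction. Its columns had medians of 91.9 (WT LT-HSC), 97.5 (cKO LT-HSC), 107.3 (WT MPP) and 102.4 (cKO MPP). The scaling rule behind it is not given. Its differences for the listed factors matched those after scaling to each array's 75th percentile, or nearly so.

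From these files, log2 of the processed signal was taken, 137 to 151 outlier spots per array were left out, spots of a probe were averaged, and each array's 75th percentile over non-control probes was subtracted. A gene was represented by its brightest probe among those well above background on at least 1 array (28285 genes). Names came from the RefSeq table of GRCm38.p6: 26762 probes matched by accession, 3819 by symbol, 639 by an older symbol, and 24461 kept the file's name. No test was run, since each group had 1 array. Differences at 1.5-fold and 2-fold were counted, over genes well above background on both arrays. The same steps were tested on simulated data. Named genes were all members, other Klf and Sp genes at 2-fold, the leading genes of each list described, and the 2 nearest profiles of each member that spans 2-fold. Other genes of the lists (such as Mef2d, Mef2c, Skil, Cd34 and Cxcl12) were named after their values were seen. Members, lists and rules were chosen with earlier results of these data known. Alternatives used limma 3.58.1 in R 4.3.3, with an offset of 50 for normexp. A gene of the receptor list is not reported here.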

Additional observations from a re-analysis of the deposited data

Results flagged for a closer look

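Klf12 was set apart because its cKO minus WT difference pointed in opposite directions in the 2 populations, by over 1.5-fold in each: -1.31 in LT-HSC and 2.12 in MPP. With 1 array per group this difference between the populations was not tested.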

How the results depend on the processing

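Across 9 alternatives, the median of the 8 factors kept its sign in all 4 comparisons, between -0.78 and -0.67 for cKO minus WT in LT-HSC and between -0.22 and -0.13 in MPP. Without scaling between arrays the median of LT-HSC minus MPP moved from 1.12 to 1.38 in WT and from 0.54 to 0.75 in cKO. The same change also moved the median of the 28285 genes well above background on at least 1 array. It went from -0.15 to 0.11 in WT and from -0.04 to 0.16 in cKO, so differences between populations depend on the scaling. The medians of all genes given earlier used only genes measured on both arrays. With normexp and quantile normalization, the number of factors lower by 2-fold on the cKO LT-HSC array was 1 instead of 2 and the number higher on the cKO MPP array 0 instead of 1, as Klf12 drew closer to 0. With the next brightest probe, which only Klf13 has, the latter number was 2. The filters on dim probes changed no value of a member, since all 10 probes pass them. For single factors, 37 of 288 values moved by more than the scanner error and none at 2-fold reversed. Many of the 288 could not move. The filters on dim probes and the authors' table gave the main values or nearly so. The settings that use further probes of a gene could move only Klf13. Low signals limit Klf12 and Klf3 most. No paired analysis was possible because each group has 1 array. Leaving out an array would end the comparisons it enters, since its group has no other.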
